A study of Mus musculus with 8 samples.

Results

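Tight junction genes encode the claudins, the other membrane proteins and the scaffold proteins of the seal between neighbouring epithelial cells. The 9 genes described were chosen by symbol, as 6 claudins (Cldn1, Cldn3, Cldn4, Cldn7, Cldn8 and Cldn12), occludin (Ocln), junctional adhesion molecule A (F11r) and the scaffold ZO-1 (Tjp1), out of 19457 genes in the deposited table. All 9 had a row. RNA was sequenced from primary mouse keratinocytes in culture, harvested while still subconfluent, in 4 HdR libraries and 4 WT libraries. The genotype HdR is HOIL1 ΔRING1, in which HOIL-1 lacks its first RING domain, and WT is wild type. HOIL-1, encoded by Rbck1, belongs to the complex that builds linear ubiquitin chains. The series title places the genotype in the context of psoriatic inflammation and TNF-α and NF-κB signalling. The labels give neither the age of the mice, nor the strain, nor any treatment, nor whether libraries are separate animals or cultures of a genotype, so p-values measure the spread between these libraries only.

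Claudins line up in strands that close the space between cells, and which claudins are present sets which solutes and ions pass. Occludin and junctional adhesion molecules join these strands, and ZO proteins tie them to actin inside the cell. In the epidermis functional tight junctions lie in the granular layer, where claudin-1 and claudin-4 are both found, and mice without claudin-1 die after birth from loss of water through the skin. Claudin-3, claudin-7 and claudin-8 are better known from simple epithelia such as gut and kidney.

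The start regions of the genes are shown for Cldn4 and Cldn1, the claudins with the highest levels here, and for Ocln and F11r, membrane members that were both lower in HdR. Each sequence runs 5′ to 3′ from 250 bases before to 50 bases after the gene's start, from RefSeq (GRCm38.p6), which had an entry for 8 of the 9 genes and none for Cldn8. Where a gene had several start regions the one listed first is given. Capitals mark every match to CAGGTG, the E-box bound by Snail-type repressors (reverse complement CACCTG), and to TGANTCA, the AP-1 motif. Both strands were searched, and no matches to these motifs overlapped.
Cldn4 promoter, GRCm38.p6 chr5:134946885-134947184, minus strand: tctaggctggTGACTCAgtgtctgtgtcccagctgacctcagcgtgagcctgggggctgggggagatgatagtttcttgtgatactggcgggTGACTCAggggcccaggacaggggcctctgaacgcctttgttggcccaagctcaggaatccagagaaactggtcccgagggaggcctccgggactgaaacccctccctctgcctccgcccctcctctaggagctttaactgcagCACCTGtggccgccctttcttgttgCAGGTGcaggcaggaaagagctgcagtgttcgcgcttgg
Cldn1 promoter, GRCm38.p6 chr16:26371790-26372089, minus strand: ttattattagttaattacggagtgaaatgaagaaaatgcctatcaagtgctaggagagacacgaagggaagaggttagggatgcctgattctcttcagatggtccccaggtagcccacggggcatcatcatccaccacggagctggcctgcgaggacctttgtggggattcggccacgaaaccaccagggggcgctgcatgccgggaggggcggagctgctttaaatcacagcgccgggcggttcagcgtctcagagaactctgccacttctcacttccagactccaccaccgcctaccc
Ocln promoter, GRCm38.p6 chr13:100552669-100552968, minus strand: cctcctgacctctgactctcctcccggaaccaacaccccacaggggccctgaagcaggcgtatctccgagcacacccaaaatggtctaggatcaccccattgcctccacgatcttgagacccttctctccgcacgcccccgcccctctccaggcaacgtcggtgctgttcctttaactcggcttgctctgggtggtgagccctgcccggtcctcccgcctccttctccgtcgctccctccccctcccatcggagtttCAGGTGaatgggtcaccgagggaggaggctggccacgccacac
F11r promoter, GRCm38.p6 chr1:171437311-171437610, plus strand: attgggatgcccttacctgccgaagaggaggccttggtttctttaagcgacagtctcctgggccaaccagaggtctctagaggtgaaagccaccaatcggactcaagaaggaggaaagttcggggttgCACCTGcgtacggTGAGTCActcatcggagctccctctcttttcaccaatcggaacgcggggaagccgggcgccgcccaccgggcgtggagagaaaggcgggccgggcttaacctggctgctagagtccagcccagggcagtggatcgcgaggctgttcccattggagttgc
In Cldn4 the matches began at -240 and -158 (TGACTCA), -14 (CACCTG) and 12 (CAGGTG), counted from the gene's start, whose first base is 1. F11r had CACCTG at -122 and TGAGTCA at -109, and Ocln had CAGGTG at 8. Cldn1 held neither motif in this window. Among the 8 genes with an entry, 4 held the E-box in the first listed region (Cldn3, Cldn4, Ocln and F11r) and 2 held the AP-1 motif (Cldn4 and F11r). For Tjp1 the region listed (chromosome 7, 65371195 to 65371494) lies inside the gene span given below, so the upstream end of that span was not searched. The second listed region held the E-box at -97 and -57 in Cldn7 and at -213 and -68 in Ocln. Of 27025 mouse genes, each by its first listed region, 20.03% held the E-box and 7.93% the AP-1 motif. The Grainyhead motif, AACCNGTT on either strand, was in 0 of the 8 and in 2.01% of all genes. A match describes letters only, and binding was not measured.

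HdR libraries were shallower, with 2.31 to 4.31 Gb of aligned bases against 4.78 to 5.43 Gb in WT, so depth and genotype cannot be told apart. Rbck1 averaged 43.7 ± 1.87 in HdR and 87.5 ± 3.4 in WT (aligned bases per Mb, SD, n = 4 each), or -0.99 ± 0.047 on the log2 scale (SE). Aligned bases per Mb are the bases aligned to a gene per megabase of the library's scaled total, and they compare 1 gene between libraries. Keratinocyte keratins dominated both genotypes, with Krt5 at 18576 ± 311 in HdR and 17291 ± 851 in WT. Over all genes, limma called 45% of the 11870 tested at adjusted p under 0.05, 21.2% higher and 23.8% lower in HdR, and the median log2 fold change was -0.01. Of 11 keratinocyte markers, all tested, 4 were called higher in HdR, 2 lower and 5 neither. Krt5 was among the higher ones (limma adjusted p = 0.025).

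The tight junction genes were split between the genotypes and the differences were small. Tjp1, Cldn1, Cldn3 and Cldn7 were higher in HdR, and Cldn12, Ocln and F11r were lower. Of the 8 tested, 2 had HdR values all above WT (19.8% of all genes did) and 3 had them all below (21.3%). Cldn4 did not pass the test, and Cldn8 was too low to test. Thus 7 of 8 tested genes were called, 4 higher and 3 lower, against 45% of all tested genes (21.2% higher and 23.8% lower). Their median log2 fold change was 0.01. Cldn3 and Cldn7 lay close to the minimum mean of 1 aligned base per Mb required for testing, and Cldn7 averaged under 1 in WT, so it entered the test through its HdR values. By the treat test of limma, 0 of the 8 were shown to differ by more than 1.2-fold, against 2.89% of all genes higher and 4.58% lower. Fold changes are on the log2(value + 1) scale, which understates those of low genes, Cldn3 and Cldn7 here.

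**Figure D1:**
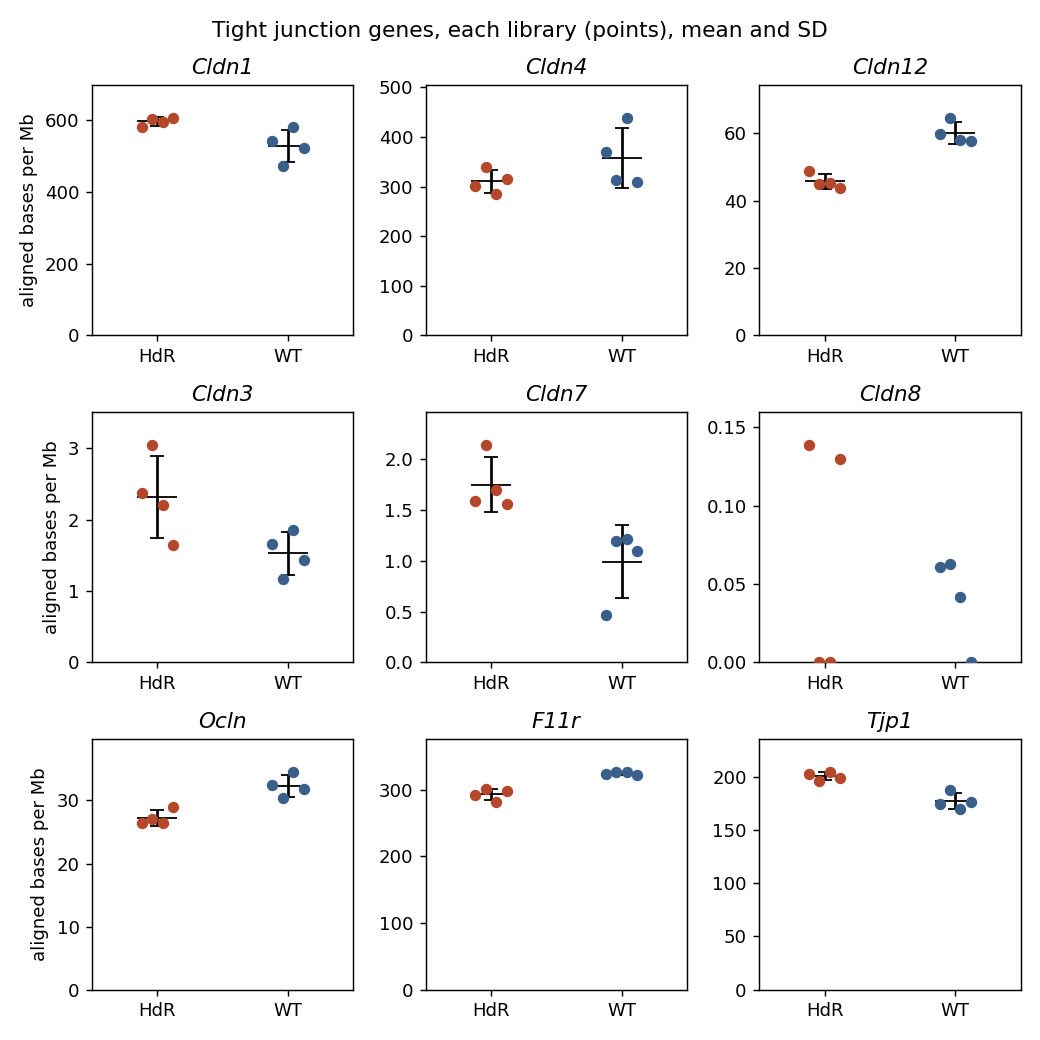
Aligned bases per Mb (vertical axis, from 0, with a scale for each gene) in each HdR library (left, red) and WT library (right, blue), with the mean and SD as black bars except for Cldn8. The HdR points of Cldn12, Ocln and F11r all lie below the WT points, those of Tjp1 and Cldn7 all lie above them, and those of Cldn1, Cldn3, Cldn4 and Cldn8 overlap.

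Among the claudins, Cldn1 (chromosome 16, 26356642 to 26371841, minus strand, the span of the annotated gene in GENCODE vM21 on GRCm38, as for all genes here) encodes the claudin on which the water barrier of mouse skin depends. Its values were 581.2, 603.2, 596.4 and 607.7 aligned bases per Mb in HdR, against 541.2, 473.7, 581.2 and 522.6 in WT. WT 3 reached the lowest HdR library, and the other WT libraries lay below all of HdR. The HdR mean was 597 ± 11.6 and the WT mean 530 ± 44.6 (SD, n = 4 each). The WT libraries thus spread more widely than the HdR libraries. Limma put the log2 difference at 0.18 ± 0.049 (SE, adjusted p = 0.0080). The call was lost when HdR 4 and WT 4 were left out together (0.16, limma adjusted p = 0.060).

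Cldn4 (chromosome 5, 134945119 to 134946934, minus strand, a single exon) encodes a sealing claudin of upper epidermal layers. It had 302, 340.4, 285.2 and 315.7 aligned bases per Mb in HdR, against 370.8, 313.2, 439.2 and 309.1 in WT. WT 2 and WT 4 lay among the HdR libraries, while WT 1 and WT 3 lay above all of them. Limma put the log2 difference at -0.19 ± 0.13 (SE, adjusted p = 0.26). The 95% interval of the fold ran from 0.710 to 1.08, which includes both lower and slightly higher values in HdR. Without WT 3, the highest library, the log2 difference was -0.09.

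Cldn12 (chromosome 5, 5489537 to 5514958, minus strand) encodes a widely expressed claudin without the usual PDZ-binding tail. It had 48.79, 45.04, 45.21 and 43.74 aligned bases per Mb in HdR, against 59.78, 64.66, 58.14 and 57.77 in WT. The genotypes did not overlap, which was so for 41.1% of all tested genes. The fold was 0.765 (95% interval 0.710 to 0.824), or -0.39 ± 0.051 on the log2 scale (SE, adjusted p = 1.1e-05 by limma). The call held when each library was left out in turn, with log2 fold changes from -0.42 to -0.35.

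Cldn3 (chromosome 5, 134986214 to 134987472, plus strand) is a neighbour of Cldn4, 39.3 kb away, and encodes a claudin of simple epithelia. It had 2.378, 3.048, 2.204 and 1.641 aligned bases per Mb in HdR, against 1.653, 1.165, 1.853 and 1.436 in WT, about 12.6 to 36.6 read-pair equivalents in HdR and 18.5 to 32.4 in WT. HdR 4, the shallowest library, lay within the WT range, and the other HdR libraries lay above it. Limma put the log2 difference at 0.38 ± 0.14 (SE, adjusted p = 0.034). It lost its call without HdR 1 (adjusted p = 0.077), HdR 2 (0.12), HdR 3 (0.056), WT 1 (0.0503), WT 2 (0.11) or WT 4 (0.066) by limma. After the libraries were thinned to equal depth the log2 fold change was 0.18 (limma adjusted p = 0.42). It shares 40 of its 1259 annotated exonic bases with an antisense gene, Wbscr25. Without a stated strand setting, reads that lie on those shared bases cannot be assigned to either gene.

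Cldn7 (chromosome 11, 69964779 to 69967885, plus strand) encodes a claudin that binds the epithelial cell adhesion molecule EpCAM. It had 1.583, 2.135, 1.696 and 1.55 aligned bases per Mb in HdR, against 0.4611, 1.187, 1.215 and 1.094 in WT. Every HdR library lay above every WT library, and WT 1 was far below the other WT libraries. The mean in HdR was 1.76 times the WT mean, and limma put the log2 difference at 0.48 ± 0.15 (SE, adjusted p = 0.014). Without WT 1 it was 0.34 (adjusted p = 0.061), and after thinning 0.43 (adjusted p = 0.063), both by limma.

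Cldn8 (chromosome 16, 88560828 to 88563183, minus strand), a claudin of the distal nephron of the kidney, was hardly detected. Its values came to 2, 0, 0 and 1 read-pair equivalents in HdR, against 1, 1, 0.728 and 0 in WT. No difference could be assessed at that depth.

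Ocln (chromosome 13, 100496507 to 100552718, minus strand) encodes occludin, a strand protein with a long tail that binds ZO-1. It had 26.45, 27.1, 26.38 and 28.98 aligned bases per Mb in HdR, against 32.38, 30.35, 34.52 and 31.87 in WT. The genotypes did not overlap, with HdR 4 and WT 2 nearest each other. Limma put the log2 difference at -0.24 ± 0.058 (SE, adjusted p = 0.0028).

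F11r (chromosome 1, 171437535 to 171464603, plus strand) encodes the immunoglobulin-type adhesion protein JAM-A. It had 291.6, 300.6, 281.5 and 297.4 aligned bases per Mb in HdR, against 322.7, 326.5, 326.1 and 321.3 in WT. Values within a genotype lay close together, the genotypes did not overlap, and the fold was 0.903 (95% interval 0.860 to 0.948). Limma put the log2 difference at -0.15 ± 0.033 (SE, adjusted p = 0.0017).

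Tjp1 (chromosome 7, 65296165 to 65527781, minus strand) encodes ZO-1, the scaffold that binds claudin tails and actin. It had 202.4, 196.2, 204.4 and 198.5 aligned bases per Mb in HdR, against 174.7, 187.5, 169.4 and 176.2 in WT. All HdR libraries lay above all WT libraries. The fold was 1.13 (95% interval 1.072 to 1.196), or 0.18 ± 0.037 on the log2 scale (SE, adjusted p = 0.00089 by limma). RNA of this scaffold gene was higher while that of Ocln and F11r, whose membrane proteins bind ZO-1, was lower in the same libraries. Protein was not measured.

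To set the genes beside each other, levels were divided by the kilobases of annotated exon (GENCODE vM21). Claudin transcripts were then nearly all Cldn4 and Cldn1. Cldn4 was at 171 ± 12.9 in HdR and 197 ± 33.6 in WT, and Cldn1 at 123 ± 2.39 in HdR and 109 ± 9.22 in WT (aligned bases per Mb per kb, SD, n = 4 each). F11r followed at 110 ± 3.15 in HdR and 122 ± 0.959 in WT. Cldn1 and F11r stood in opposite order in the genotypes, without overlap in either, but by so little that the exon length used could change which is higher. Tjp1 was at 25.7 ± 0.475 in HdR and 22.7 ± 0.975 in WT, Cldn12 at 10.8 ± 0.512 in HdR and 14.2 ± 0.75 in WT, and Ocln at 6.45 ± 0.287 in HdR and 7.65 ± 0.408 in WT. Lower still, Cldn3 was at 1.84 ± 0.46 in HdR and 1.21 ± 0.235 in WT, and Cldn7 at 0.894 ± 0.139 in HdR and 0.508 ± 0.183 in WT.

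**Figure D2:**
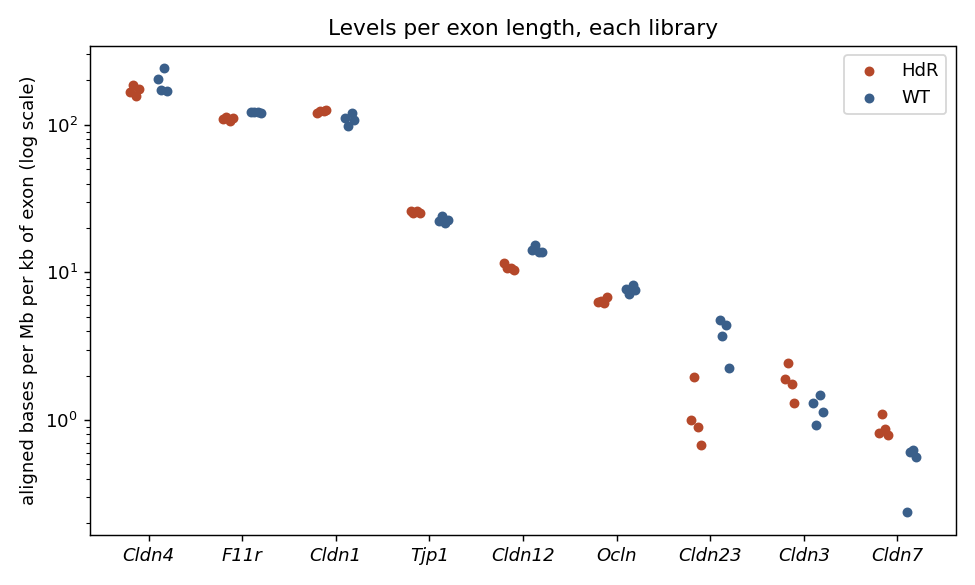
Aligned bases per Mb per kb of exon (vertical axis, log scale) in each HdR library (red, left of each pair) and WT library (blue, right), for the genes described except Cldn8, whose zeros a log axis cannot show, and for Cldn23. Cldn4, F11r and Cldn1 lie near or above 100, Tjp1, Cldn12 and Ocln between about 6 and 26, and Cldn23, Cldn3 and Cldn7 below 5.

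The balance between the main claudins differed by genotype as a description, with no test. Per exon length, the ratio of Cldn4 to Cldn1 was 1.385, 1.504, 1.274 and 1.385 in HdR, against 1.826, 1.763, 2.014 and 1.576 in WT. All HdR ratios lay under all WT ratios. Of the summed level of the 6 claudins and Cldn23, Cldn1 made up 39.9% ± 1.59 in HdR and 33.7% ± 2.11 in WT, and Cldn4 55.3% ± 1.56 in HdR and 60.2% ± 2.42 in WT (SD, n = 4 each). The sum itself was 309 ± 14.7 in HdR and 326 ± 42.5 in WT (aligned bases per Mb per kb), and the genotypes overlapped. Thus Cldn1 held a larger share in HdR at a claudin sum within the range of WT.

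Beyond these genes, 62 other tight junction and polarity genes had a row, and 42 were tested. In HdR 5 were higher, 12 were lower and 25 did not pass, a median log2 fold change of -0.02 beside -0.01 over all genes. Over all tested genes 21.2% were called higher and 23.8% lower, the shares to set beside this and each later list count. Of 17 other claudin-family genes with a row, 2 were tested and 15 were too low. Cldn23, a claudin encoded by a single exon, fell to 1.858, 3.622, 1.654 and 1.247 aligned bases per Mb in HdR, against 8.811, 6.809, 8.169 and 4.147 in WT. The genotypes did not overlap, although WT 4 was close to HdR 2. Limma put its log2 difference at -1.38 ± 0.27 (SE, adjusted p = 0.0041), outside the range of the 8 genes above. Cldnd1, a claudin-domain gene, was at -0.08 ± 0.044 (adjusted p = 0.17).

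Of 5 other transmembrane genes tested, 2 were lower and none was called higher. Marveld2, which encodes tricellulin, a protein of tricellular contacts, had 9.573, 8.418, 14.65 and 9.439 aligned bases per Mb in HdR, against 15.29, 15.95, 17.02 and 15.47 in WT. HdR 3 lay close to WT and the others well below it. Limma put the log2 difference at -0.58 ± 0.13 (SE, adjusted p = 0.0028). Cxadr, the coxsackievirus and adenovirus receptor, was at -0.33 ± 0.076 (adjusted p = 0.0029), Marveld3 at -0.25 ± 0.11 (adjusted p = 0.073) and Ildr1 at 0.23 ± 0.11 (adjusted p = 0.11). Marveld3 passed the test when HdR 4 was left out (-0.33, adjusted p = 0.018).

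Of 21 other plaque genes, all tested, 5 were higher and 2 lower. The lower ones changed most. Arhgef2, the exchange factor GEF-H1 that binds junction plaques and microtubules, had 41.31, 47.02, 41.68 and 45.12 aligned bases per Mb in HdR, against 96.68, 118.2, 90.12 and 98.97 in WT. Its highest HdR value was well below its lowest WT value, and limma put the log2 difference at -1.18 ± 0.073 (SE, adjusted p = 6e-08). Tjp3, which encodes ZO-3, had 1.526, 1.354, 1.07 and 1.429 in HdR, against 3.529, 3.949, 3.474 and 3.573 in WT, a log2 fold change of -0.98 ± 0.11. Tjp3 was thus lower where Tjp1, described above, was higher. Cgnl1, which encodes paracingulin, was at 3.25 ± 0.4 in HdR and 1.72 ± 0.1 in WT (SD, n = 4 each, log2 fold change 0.64 ± 0.11). Amotl2 (0.29 ± 0.039), Afdn (0.19 ± 0.034) and Cgn (0.14 ± 0.047) were also higher, and Afdn and Cgn were named after their values were seen. Cgn lost its call without HdR 1, HdR 3, WT 1 or WT 2 (limma adjusted p 0.060 to 0.076).

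Polarity genes place the junction along the side of the cell, and 7 of 14 tested were lower with 0 higher. Pard3b, a PAR3 paralogue, had 0.6262, 0.5486, 0.5016 and 1.163 aligned bases per Mb in HdR, against 3.438, 4.515, 3.002 and 3.418 in WT. It had the largest difference of the list, at -1.43 ± 0.14 on the log2 scale (SE, adjusted p = 5.2e-07 by limma), and with a mean of 0.71 in HdR it entered the test through its WT values. Pard6b (-0.31 ± 0.042), Scrib (-0.19 ± 0.034) and Mpp5, which encodes PALS1 (-0.18 ± 0.051), differed less. The treat test at a fold of 1.2 left Cldn23, Arhgef2, Tjp3 and Pard3b lower and Cgnl1 higher among the 42. The log2 fold changes of low genes depend on the pseudocount of 1. With 0.1 in its place that of Pard3b was -2.24, that of Tjp3 -1.38, that of Cldn23 -1.74 and that of Cgnl1 0.88. With 5 they were -0.59 for Pard3b, -0.44 for Tjp3, -0.75 for Cldn23 and 0.30 for Cgnl1.

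**Figure D3:**
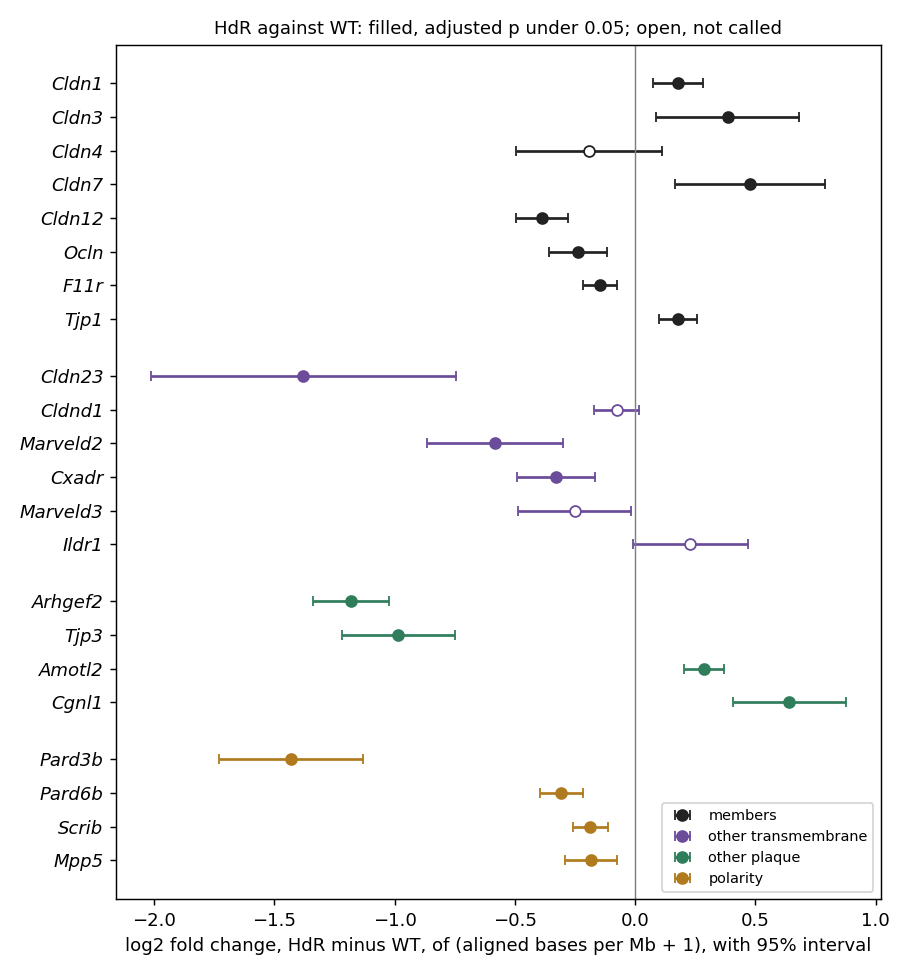
Log2 fold change, HdR minus WT, on the log2(value + 1) scale (horizontal axis) with its 95% interval for 8 tight junction genes (black) and named genes of the other transmembrane (purple), plaque (green) and polarity (ochre) lists. Filled points have limma adjusted p under 0.05. The black points lie between -0.39 and 0.48, while Cldn23, Arhgef2 and Pard3b lie below -1.

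Genes that act on claudins were also divided, 2 of 7 being higher and 2 lower. Epcam, whose product binds claudin-7, was at 96.9 ± 5.16 in HdR and 71.5 ± 6.23 in WT (aligned bases per Mb, SD, n = 4 each), or 0.44 ± 0.057 on the log2 scale (SE, adjusted p = 1.4e-05 by limma). St14 encodes the protease matriptase, and Spint1 and Spint2 encode its inhibitors HAI-1 and HAI-2. St14 was higher at 0.27 ± 0.04, and Spint2 and Spint1 were lower at -0.29 ± 0.042 and -0.26 ± 0.059. Of 12 adherens junction genes, 1 was higher and 4 were lower. Nectin2 and Nectin4 were at -0.44 ± 0.062 and -0.44 ± 0.074, Nectin1 at -0.22 ± 0.041, and Ctnnd1, p120 catenin, at 0.18 ± 0.038.

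Of 17 transcription factor genes known to act in epithelial gene control, 11 were tested, 6 were lower and 0 higher. Ovol1, a repressor active as keratinocytes leave the cell cycle, was at 114 ± 3.8 in HdR and 242 ± 29.6 in WT (aligned bases per Mb, SD, n = 4 each), or -1.08 ± 0.081 on the log2 scale (SE, adjusted p = 5.8e-06 by limma). Grhl1 (-0.39 ± 0.056), Elf3 (-0.49 ± 0.11) and Klf4 (-0.23 ± 0.051) were also lower. Of the Snail-type and Zeb factors, Snai2 was tested and did not pass (-0.02, limma adjusted p = 0.74), while Snai1, Zeb1 and Zeb2 were below the minimum.

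Markers of differentiation moved in the same libraries. Of 15 tested suprabasal and granular genes, 13 were lower and 0 higher in HdR (median log2 fold change -0.66), with Krt10 at -2.05 ± 0.051 and Krt1 at -1.40 ± 0.076. The summed level of the list was 3165 to 3728 aligned bases per Mb in HdR and 4293 to 5850 in WT. Their mean log2 level set against the WT mean was -0.69, -0.60, -0.83 and -0.67 in HdR, against 0.06, -0.06, 0.21 and -0.21 in WT. In this score the HdR libraries ran HdR 2, HdR 4, HdR 1, HdR 3 from high to low, as for both Cldn4 and F11r. The WT libraries ran WT 3, WT 1, WT 2, WT 4 from high to low, as for Cldn4 but not F11r. Orders of so few libraries were not tested. The other tested tight junction genes had other WT orders. Cldn1, Cldn3, Cldn7 and Ocln were highest in WT 3, and Cldn12, F11r and Tjp1 in WT 2. Fewer differentiating cells and less RNA per such cell cannot be told apart in bulk RNA, and their part in the tight junction values was not tested.

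Markers of simple epithelium also moved. Of 9 with a row, 4 were tested, and Krt8 (0.85 ± 0.13) and Krt18 (0.84 ± 0.16) were higher, Krt7 was lower (-0.19 ± 0.063) and Krt19 did not pass. Krt18 averaged 0.949 in WT and entered the test through its HdR values. Their summed level overlapped, at 42.1 to 47.6 aligned bases per Mb in HdR and 42.4 to 51.4 in WT, and Cdh16 was at 0.00713 in HdR 1 and at 0 in each of the other libraries. These stand beside the higher Cldn3 and Cldn7, and their part in those values was not tested. Melanocyte markers were lower for 6 of 7 tested genes, 3 of which (Tyr, Mlana and Kit) averaged under 1 in HdR and entered the test through WT, with a summed level of 27.7 to 29.7 in HdR and 53.1 to 61.3 in WT. Their part was not tested either. The fibroblast list summed to 2.47 to 6.29 in HdR and 2.3 to 4.39 in WT, and the endothelial list to 2.07 to 2.88 in HdR and 1.16 to 1.41 in WT. The 1 fibroblast gene tested was lower in HdR, although the list reached its highest sum there. Both tested leukocyte genes were lower, Cd68 averaging 39.5 in HdR and 56.4 in WT and Itgam 3.59 in HdR and 5.33 in WT, while Ptprc was at most at 0.02 on average in either genotype. The endothelial genes were too low to test, with Pecam1 at 0.839 in HdR and 0.458 in WT and Kdr at 0.383 in HdR and 0.023 in WT. The leukocyte list summed to 42.8 to 43.9 in HdR and 52.3 to 66.1 in WT. Of 5 sebocyte genes 3 were higher and 1 lower, and the 1 tested hair follicle gene was lower.

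**Figure D4:**
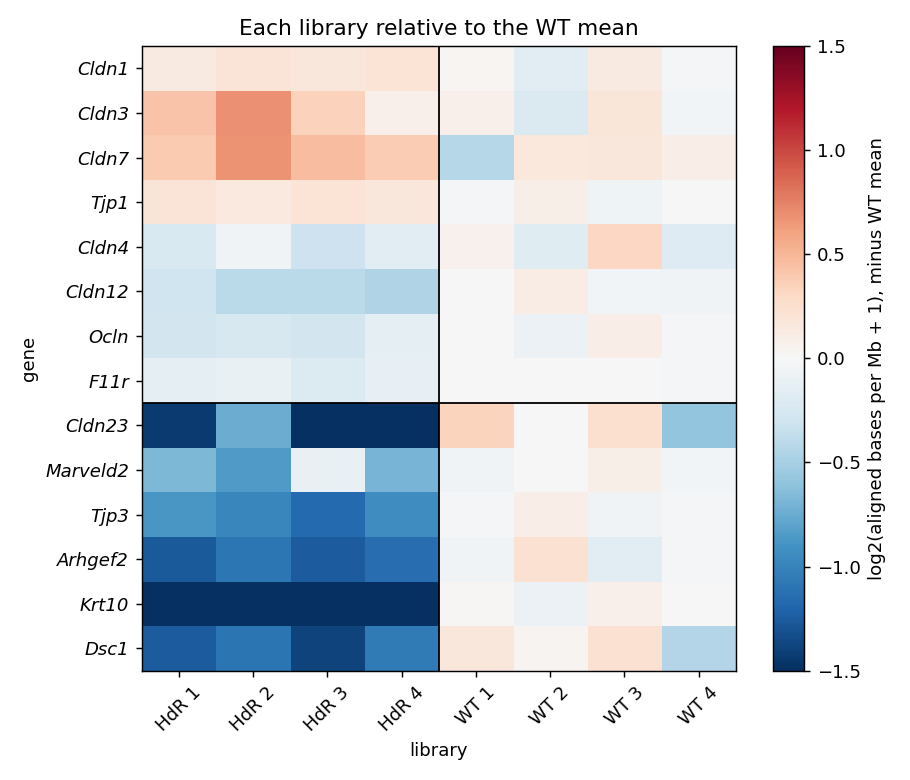
Log2(aligned bases per Mb + 1) minus the WT mean (colour, red higher and blue lower, ending at -1.5 and 1.5) in each HdR library (left of the line) and WT library (right), for 8 tight junction genes (above the line) and for Cldn23, Marveld2, Tjp3, Arhgef2, Krt10 and Dsc1, a desmosomal cadherin gene of the suprabasal layers (below). Krt10 lies past the low end of the colour scale in every HdR library, while the tight junction genes stay between -0.45 and 0.69.

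The genes with profiles most like those of the most changed members were found by distance over the 8 libraries, each profile being centred on its own mean. For Cldn12 they were Clasp1, Atp6v1a and Suco, at root mean square distances of 0.03, 0.04 and 0.04 on the log2 scale, against a median of 0.22 over 9732 genes. For Cldn7 they were P2rx2, Alg2 and Dlc1, at 0.11, 0.13 and 0.14, against a median of 0.32. Profiles were matched over both genotypes, so a shared sign of the log2 fold change follows from the selection. The log2 fold changes ran from -0.40 to -0.35 near Cldn12 and from 0.39 to 0.51 near Cldn7. The likeness describes profiles that share the same libraries and depth.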

How the data were processed

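Values are signal as deposited by the authors: coverage, summing the bases aligned to each gene in whole numbers, scaled for neither depth nor length. No source states the unit, and it is read from the values, whose commonest non-zero entries were 302, 604 and 906, as for read pairs of 302 bases. Exact multiples of 302 made up 16.9% of the low non-zero entries (below 10 pairs' worth), so the unit is an inference and the equivalents are approximate. Division by 302 gives read-pair equivalents. RNA came from culture plates (RNeasy) and libraries from a NEBNext Ultra II kit, per the labels' protocols, with reads placed on GRCm38, per the submitters' processing notes. Aligner, counter, annotation and strand setting are not given in the sources used here.

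Libraries were scaled by trimmed-mean (TMM) factors (30% of log ratios and 5% of levels trimmed at each end). Genes with a mean of at least 1 aligned base per Mb were fitted with limma 3.58.1 (R 4.3.3, statmod 1.5.0; log2(value + 1), mean trend, robust variance), two-sided, with Benjamini-Hochberg adjustment over all 11870 genes. Calls needed an adjusted p under 0.05. No read-count model was used because coverage is not a count, and no counting interval is given. In simulated data for HdR minus WT (11885 genes), 80% of 1.5-fold and 88% of 2-fold changes were recovered, and 2.89% of 173 calls were false. Only 100 genes were changed at each fold, against 45% of genes called in the data, so these shares may not carry over. Smaller folds, like those of most tight junction genes here, were not simulated. Of the symbols, 19158 matched GENCODE vM21. Figures used Python 3.11.15 and matplotlib 3.10.9.

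The members and gene lists were chosen with earlier results of these data known. Named are all members, up to 4 genes of smallest p per list, the 3 nearest profiles, and genes marked in the text; Krt5, Ptprc, Pecam1, Kdr, Cdh16, Dsc1 and the Snail and Zeb genes lie outside that rule. One gene counted in the lists is not reported here by name. Alternatives were other scalings, filters, pseudocounts (0.1 and 5), limma-voom, a test against a fold of 1.2, the replicate number as a block, libraries left out, and, added after seeing the data, thinning to the smallest library.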

Additional observations from a re-analysis of the deposited data

Results flagged for a closer look

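WT 1 stood apart from the other WT libraries for Cldn7, the claudin that binds EpCAM. It had 0.461 aligned bases per Mb, about 7.58 read-pair equivalents, against 1.09 to 1.22 in the other WT libraries. The gap was 0.839 of the range of the WT libraries, above Dixon's 95% critical value for 4 samples. This was 1 of 84 groups looked at, over 42 genes, and chance flags about 1 in 20 groups. The HdR libraries, at 1.55 to 2.13, all lay above the highest WT library. Without WT 1 the log2 fold change was 0.34 and the call was lost (limma adjusted p = 0.061).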

How the results depend on the processing

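Across 20 alternatives none of the 8 tight junction genes tested changed direction. Of 158 values, 139 kept their side of the threshold and 19 lost their call, 10 of those being Cldn3. Ocln, F11r, Tjp1 and Cldn12 lost theirs only against a fold of 1.2, where 0 tight junction genes were called higher and 0 lower, 1 and 4 of the other tight junction and polarity genes, and 343 and 544 of all genes. The number of tight junction genes called higher, 4 as reported, was 2 with the stricter filter (at least 5 in 4 libraries), which Cldn3 and Cldn7 did not pass, and 2 after thinning to the smallest library. Leaving out 1 library at a time gave 2 (without WT 1) to 4 higher and 3 lower, 4 to 6 higher and 9 to 11 lower among the other genes, and 2145 to 2477 higher and 2416 to 2812 lower over all genes. Upper-quartile scaling gave 3113 higher and 2278 lower over all genes (57.7% of calls higher, against 47.1%) and the same 7 tight junction calls. With a pseudocount of 0.1 the log2 fold change of Cldn7 was 0.82 and that of Cldn3 0.56, and with 5 they were 0.17 for Cldn7 and 0.16 for Cldn3. By limma-voom they were largest, at 1.12 for Cldn7 and 0.59 for Cldn3. Without a filter Cldn3 had adjusted p = 0.066 by limma. Of 794 values of the other named genes, 763 kept their side, 29 lost a call, 2 gained one and 0 reversed.

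Same-numbered HdR and WT libraries had correlations across genes of 0.03, -0.07, -0.22 and 0.02, and unlike-numbered ones ran from -0.237 to 0.248. These values cannot show whether a number marks a shared animal or day, which the labels do not state. With the replicate block, 3 tight junction genes were higher and 3 lower, Cldn3 being the call lost (limma adjusted p = 0.052), with 5 and 10 of the other genes and 2236 and 2519 of all genes. Depth limits Cldn3, Cldn7 and Cldn8 most, at 0 to 36.6 read-pair equivalents a library.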
